A study of Mus musculus with 24 samples.

Results

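The Rab, Arf and Arl genes encode the small GTPases of membrane traffic. They were taken by symbol from the deposited TPM table: Rab followed by a number and at most 1 letter, Arf1 to Arf6, and Arl followed by a number and at most 1 letter. This gave 75 of the 15625 genes of that table, made up of 52 Rab, 6 Arf and 17 Arl genes. Genes such as Rabl3, Arfrp1 or Sar1b have other symbols and were set beside the members as relatives. A further 10 matching symbols stood only in the count table of 37229 genes, and together they held 252 counts over all embryos.

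The data were RNA-seq profiles of 24 single ICR mouse embryos made by in vitro fertilization, with libraries prepared by Smart-seq2 from oligo(dT)-primed cDNA. Split embryos each grew from 1 blastomere of a late two-cell embryo, separated mechanically in biopsy medium and cultured alone in a modified sodium hyaluronate gel, so that sisters of a pair share an origin. Control embryos stayed intact under matched conditions. There were 4 control 8-cell embryos (26282853 to 38514899 counted reads), 6 split morulae in 3 sister pairs (14146833 to 18852776), 5 control morulae (13888842 to 19014808), 6 split blastocysts in 3 sister pairs (13439059 to 25228658) and 3 control blastocysts (11316911 to 12653788). The labels name neither animals nor batches for the replicates, so p-values measure only the spread between these samples.

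Rab, Arf and Arl proteins switch between a GDP-bound and a GTP-bound form. The GTP-bound form sits on a membrane and recruits effectors such as coats, tethers and motors. Guanine nucleotide exchange factors (GEFs) switch them on and GTPase-activating proteins (GAPs) switch them off, and each protein marks certain compartments: Rab1 and Rab2 the border of endoplasmic reticulum (ER) and Golgi, Rab5 the early endosome, Rab7 the late endosome, Rab11 the recycling endosome, Arf1 the Golgi. In the mouse embryo, compaction and the making of the trophectoderm, the outer epithelium that pumps fluid into the blastocyst cavity, depend on sorting of membrane proteins to apical and basolateral surfaces.

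Most of the family was present. A count was found in all 24 embryos for 42 of the 75 members, 44 had a mean of at least 10 TPM over the 5 groups, and 12 had at least 100 TPM. A mean under 1 TPM was found for 7 members. The 10 highest, which held 63% of the TPM of all members, were Arf1, Rab11a, Rab7, Rab1a, Rab2a, Rab20, Arf6, Arl8b, Arl1 and Arl5c. Arf1, which recruits the COPI coat to the Golgi, alone held 11%, and its group means ran from 88.3 TPM in 8-cell embryos to 862 TPM in split blastocysts. TPM is scaled for transcript length, so these levels can be compared between genes.

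Summed over the 75 members, transcripts made up 2540 ± 297 TPM at the control 8-cell stage, 3530 ± 332 TPM in split morulae, 3490 ± 307 TPM in control morulae, 4590 ± 208 TPM in split blastocysts and 4120 ± 409 TPM in control blastocysts (SD; n = 4, 3 pairs, 5, 3 pairs and 3). The 6 Arf genes held 328 ± 87.7 TPM in 8-cell embryos, 718 ± 40.6 and 629 ± 145 TPM in split and control morulae, and 1300 ± 160 and 1010 ± 163 TPM in split and control blastocysts. The 17 Arl genes held 535 ± 40.7 TPM in 8-cell embryos, and fewer TPM in split than in control embryos at both later stages: 531 ± 55 against 703 ± 71.6 TPM in morulae and 559 ± 41.8 against 759 ± 113 TPM in blastocysts. Without Arl5c, the other 16 Arl genes held 464 ± 54.2 TPM in split against 591 ± 88.2 TPM in control morulae, but 494 ± 37.7 TPM in split against 459 ± 55.5 TPM in control blastocysts. These sums were not tested.

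In the GENCODE M21 annotation the exons of 11 members overlap those of another gene with a mean of at least 10 counts. Among the members called below these were Arf4 (with Pde12), Rab7 (with Gm5577), Rab10 (with Rab10os) and Rab20 (with E230013L22Rik), all on opposite strands. Others included Rab3a (with Mpv17l2), Rab2b (with Tox4), Rab11b (with Gm17251) and Arf5 (with Gcc1), also on opposite strands. Rab26 overlaps Traf7 on the same strand. Whether counting used strand is not stated, so reads of these neighbours cannot be told apart. How reads that match several paralogs were counted is not stated either.

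**Figure D1:**
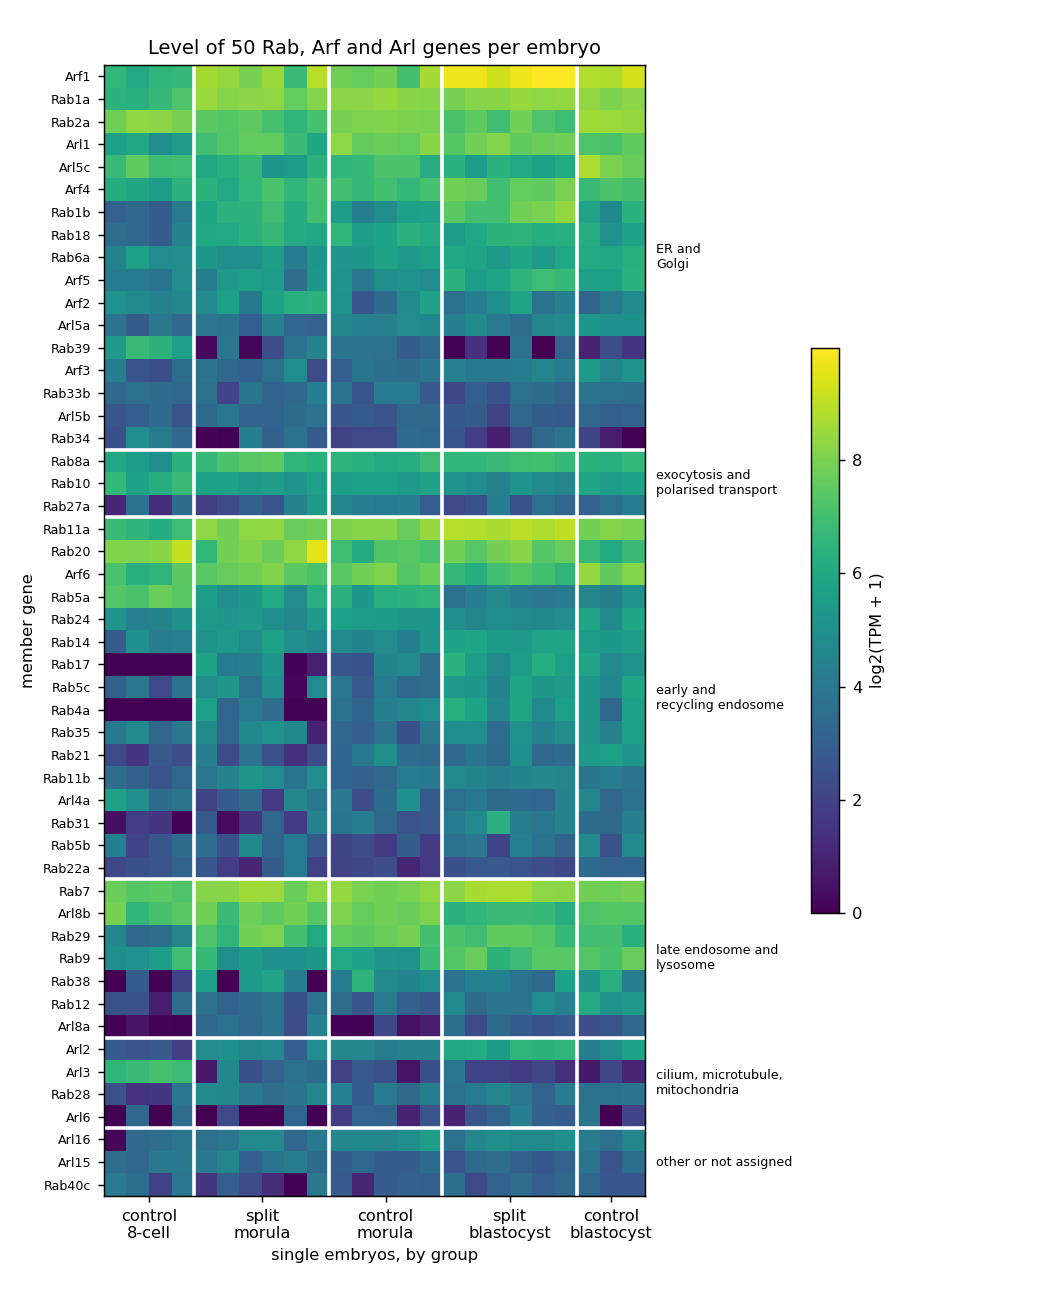
Level of the 50 members with a mean of at least 5 TPM, as log2(TPM + 1), in each of the 24 embryos (columns, by group), with genes in rows by compartment. Arf1, Rab1a, Rab2a, Rab11a and Rab7 were high in all groups, Rab17 and Rab4a were at 0 in the 8-cell embryos, and Arl3 and Rab39 were highest in the 8-cell embryos.

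Libraries of a group resembled each other, with a mean Pearson's r of log2 CPM with the rest of the group of 0.831 to 0.865 for split morulae and 0.904 to 0.941 for the other embryos. Levels of single genes are given below as CPM (read count normalised to library size), and comparisons between groups are edgeR quasi-likelihood tests over all 15875 genes that passed the filter on low counts, with sister embryos summed to 1 unit and p-values adjusted by Benjamini-Hochberg. A gene was called at an adjusted p under 0.05. Of the members, 74 were tested. Rab37, with counts in 4 of 6 split blastocysts (up to 1.82 CPM) and none in the other groups, was not. The summed level of 7 trophectoderm markers was 82.1 to 171 CPM in 8-cell embryos, 300 to 2400 CPM in split and 578 to 1010 CPM in control morulae, and 4210 to 6330 CPM in split and 1840 to 2910 CPM in control blastocysts. All 7 had counts in each group. The part of this shift in the member differences was not tested, and in whole embryos fewer cells of a type and less RNA per cell cannot be told apart.

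The first comparison asked how the family differed between control morulae (n = 5) and control 8-cell embryos (n = 4). In the morulae 17 members rose and 6 fell, 31.1% of those tested, where 24.9% of all genes were called (14.3% higher and 10.7% lower). The median change of the members was 0.43 on the log2 scale, against 0.09 over all genes. Between units of the groups, 16 members lay wholly above and 6 wholly below, 29.7% of 74 against 22% of all genes. By compartment, 7 of 23 ER and Golgi members rose and 1 fell, 6 of 21 early and recycling endosome members rose and 3 fell, 3 of 7 late endosome and lysosome members rose, and 1 of 6 cilium, microtubule and mitochondria members moved in each direction. Of 10 tested members of exocytosis and polarised transport, Rab10 fell and no other member was called.

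Among ER and Golgi members, Rab1a, which acts in transport from the ER to the Golgi, was at 483, 525, 563, 505 and 473 CPM in control morulae against 163, 148, 197 and 255 CPM in 8-cell embryos. The groups did not overlap, and the difference was 1.5 ± 0.17 (log2 fold change ± SE, edgeR adjusted p = 1.01e-06). Its paralog Rab1b, at 19.6 to 53.2 CPM against 7.45 to 16.5 CPM, rose by 1.94 ± 0.36. Arl1, which brings golgin tethers to the trans-Golgi, stood at 310, 207, 217, 207 and 298 CPM in control morulae against 58.8, 70.4, 33 and 47.8 CPM in 8-cell embryos. Every morula exceeded every 8-cell embryo, and Arl1 rose by 2.31 ± 0.26 (edgeR adjusted p = 9.41e-07). Rab18, a GTPase of ER and lipid droplets, rose by 2.49 ± 0.31, Arf1 by 1.36 ± 0.24, Arf4 by 0.80 ± 0.20 and Arl5a, a trans-Golgi GTPase, by 1.01 ± 0.31. Rab39 fell by 2.80 ± 0.59, to 8.86 to 17.2 CPM in control morulae against 60.7 to 151 CPM in 8-cell embryos.

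The endosomal members moved in both directions. Rab17, a GTPase of polarised epithelial recycling, had 4.72, 4.30, 18.8, 23.1 and 9.26 CPM in control morulae and no count in the 4 8-cell embryos, the most deeply sequenced libraries of the study. It was at least 110-fold higher, against a floor of 3 counts per library. Rab4a, a GTPase of fast recycling, had 9.20, 6.71, 14.1, 17.5 and 20.9 CPM against none, and was at least 125-fold higher. Both genes had counts in all 5 control morulae, with adjusted p-values of 1.52e-05 for Rab17 and 8.25e-05 for Rab4a (edgeR).

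Rab11a, the main recycling endosome GTPase, stood at 330, 392, 368, 274 and 447 CPM in control morulae against 156, 130, 108 and 155 CPM in 8-cell embryos, with no overlap (log2 1.48 ± 0.18, edgeR adjusted p = 3.19e-06). Rab5a, which drives fusion of early endosomes, went the other way: 191, 93.5, 170, 205 and 211 CPM against 408, 353, 562 and 394 CPM. The highest control morula lay below the lowest 8-cell embryo, and Rab5a fell by 1.22 ± 0.22 (edgeR adjusted p = 0.000277). Rab20, an endosomal and phagosomal GTPase, fell by 1.44 ± 0.30, while Rab21, which accompanies integrins through endosomes, rose by 1.85 ± 0.48 and Rab31 by 3.04 ± 0.90. Arf6, which works at the plasma membrane and on actin, rose by 0.74 ± 0.25, a call lost in 9 of 19 alternatives. Among these were leaving out control 8-cell replicate 2 (edgeR adjusted p = 0.113) or 3 (0.103) and control morula replicate 2 (0.0754), 3 (0.0855) or 5 (0.0552).

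Of the late endosome and lysosome members, Rab29, a partner of the kinase LRRK2, showed the largest change with a precise estimate. It was at 120, 118, 136, 162 and 82.3 CPM in control morulae against 17.5, 6.86, 8.25 and 15.3 CPM in 8-cell embryos, and rose by 3.44 ± 0.36 (edgeR adjusted p = 5.22e-07). Rab7, of late endosomes, rose by 0.61 ± 0.17. Rab38, known for lysosome-related organelles such as melanosomes, rose by 3.90 ± 1.21, but 1 control morula at 64.1 CPM stood far above the others (11.3 to 19.5 CPM). The adjusted p of Rab38 was 0.0567 without that embryo (control morula replicate 2) and 0.05, no longer called, without control 8-cell replicate 4.

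Arl3, which releases lipid-modified proteins into cilia, showed the largest fall among members with counts in both groups. It was at 2.85, 6.91, 4.94, 0.456 and 4.69 CPM in control morulae against 114, 135, 167 and 128 CPM in 8-cell embryos, and fell by 5.01 ± 0.64 (edgeR adjusted p = 5.13e-06). Arl2, a regulator of tubulin folding, rose by 1.96 ± 0.36 to 26.4 to 37.7 CPM, against 3.83 to 11.1 CPM. Rab10, a GTPase of exocytosis, fell by 0.83 ± 0.22. Arl4d, which brings Arf GEFs to the plasma membrane, had no count in 5 control morulae and counts in 2 of 4 8-cell embryos (at least 14.9-fold lower, against 3 counts per library). Its call was lost in 11 of 18 alternatives, among them leaving out control 8-cell replicate 2 (edgeR adjusted p = 0.0655) or any single control morula (0.057 to 0.0592). The call of Arl5a ended without control 8-cell replicate 2 (0.0677) or replicate 4 (0.0627).

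**Figure D2:**
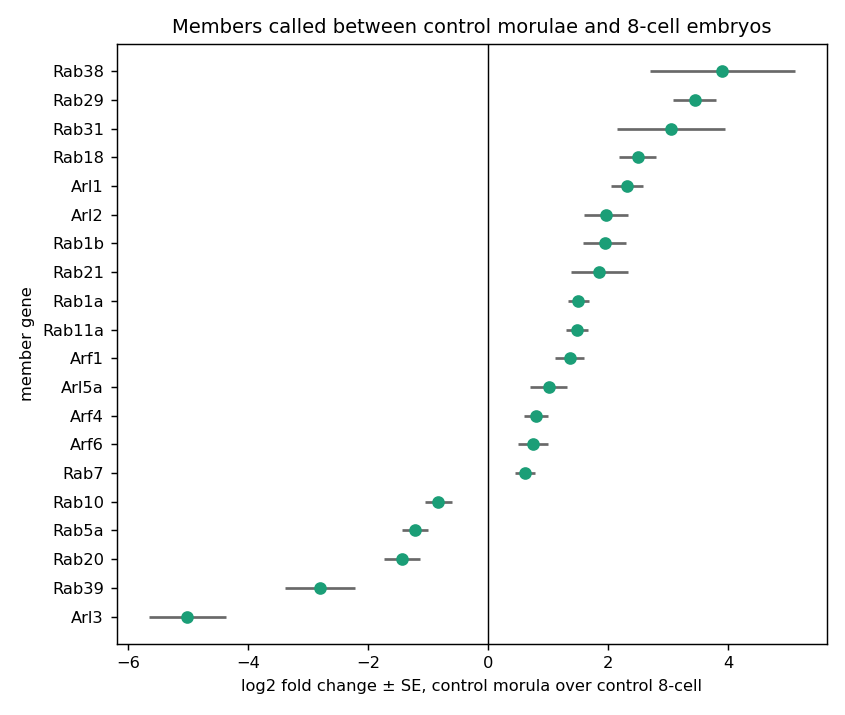
Log2 fold change ± SE of the 20 members called between control morulae (n = 5) and control 8-cell embryos (n = 4) and counted in both groups, positive where the morulae were higher. Values ran from -5.01 for Arl3 to 3.90 for Rab38. The 3 called members with no count in a group (Rab17, Rab4a, Arl4d) are not drawn.

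The promoters of 6 of these members are shown, for the rise from no counts (Rab17), the rises of the Golgi and recycling genes (Arl1, Rab11a, Arf1) and the falls (Arl3, Rab5a). Each is the 150 bases upstream of the first listed RefSeq start on build GRCm38.p6, 5′ to 3′ on the gene's strand, with motif letters in capitals. The positions are chr1:90967668-90967817 (minus strand) for Rab17, chr10:88731264-88731413 (plus) for Arl1, chr9:64737757-64737906 (minus) for Rab11a, chr11:59228268-59228417 (minus) for Arf1, chr19:46573183-46573332 (minus) for Arl3 and chr17:53479084-53479233 (plus) for Rab5a.
Rab17: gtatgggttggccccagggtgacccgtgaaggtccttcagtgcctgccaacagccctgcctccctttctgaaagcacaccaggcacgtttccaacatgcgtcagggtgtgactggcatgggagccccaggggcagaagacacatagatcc
Arl1: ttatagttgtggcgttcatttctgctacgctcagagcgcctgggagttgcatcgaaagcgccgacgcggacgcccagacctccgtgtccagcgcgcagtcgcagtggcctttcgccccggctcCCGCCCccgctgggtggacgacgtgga
Rab11a: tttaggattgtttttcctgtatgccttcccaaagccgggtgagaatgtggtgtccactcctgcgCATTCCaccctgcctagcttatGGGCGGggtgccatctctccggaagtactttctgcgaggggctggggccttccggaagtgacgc
Arf1: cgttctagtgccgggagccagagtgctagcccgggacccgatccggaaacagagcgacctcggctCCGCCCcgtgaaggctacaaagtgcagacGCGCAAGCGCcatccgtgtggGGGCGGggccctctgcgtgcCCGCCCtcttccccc
Arl3: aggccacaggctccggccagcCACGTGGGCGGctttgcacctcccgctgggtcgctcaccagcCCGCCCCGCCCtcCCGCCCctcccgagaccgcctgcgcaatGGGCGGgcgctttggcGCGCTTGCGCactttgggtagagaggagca
Rab5a: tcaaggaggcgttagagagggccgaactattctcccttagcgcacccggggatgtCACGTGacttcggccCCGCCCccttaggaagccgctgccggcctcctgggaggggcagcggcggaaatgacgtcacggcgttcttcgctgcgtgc
The motifs searched, on both strands, were the GC box (GGGCGG), the CCAAT box (CCAAT), the TATA box (TATAAA), an E-box (CACGTG), a TEAD site (GGAATG) and an NRF1 site (GCGC and TGCGC with any 1 base between). Capitals in Arl1 mark 1 GC box, in Rab11a 1 TEAD site and 1 GC box, in Arf1 3 GC boxes and 1 NRF1 site, in Arl3 5 GC boxes, a pair of which share a base, 1 E-box that shares a base with the first of them and 1 NRF1 site, and in Rab5a 1 E-box and 1 GC box. No capital stands in Rab17. A GC box stood in 44 of the 63 members with a promoter entry, against 29.0% of 27025 mouse promoters. The NRF1 letters stood in 9 and the E-box letters in 7 of the 63, against 3.22% and 4.30% of all promoters. All promoters include those of genes without counts here, whereas the members come from a table of genes counted in these embryos. The shares are therefore not of like sets. The GC box was present in 10 of 13 promoters of members that rose and in 5 of 6 of members that fell. A match of letters is a description of sequence, not a binding site.

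Control blastocysts (n = 3) were then set against control morulae (n = 5). In the blastocysts 2 members rose and 6 fell, 10.8% of those tested, where 10.6% of all genes were called (3.12% higher, 7.46% lower). Units did not overlap for 8 members above and 9 below, 23% of 74 against 25.3% of all genes. The median member change was -0.18, against 0.11 over all genes. The counts differed between methods. With RLE size factors in the same edgeR test 3 members were called higher and 6 lower, DESeq2 called 8 members higher and 9 lower, and limma on log2(TPM + 1), which moved the median of all genes to 0.37, called 14 higher and 2 lower. Of all genes called, 29.5% were higher in the main edgeR test, 36.2% with RLE size factors, 39.3% with DESeq2 and 76.2% with that limma fit.

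Rab5a fell again, to 42.7, 34.1 and 55.5 CPM in control blastocysts against 191, 93.5, 170, 205 and 211 CPM in control morulae. All blastocysts lay below all morulae, the difference was -2.07 ± 0.26 (edgeR adjusted p = 1.26e-05), and this was the only one of the 8 calls that held in all 18 alternatives. Arl8b, which couples lysosomes to kinesin, stood at 224, 261 and 227 CPM in control blastocysts against 402 to 506 CPM in control morulae, and fell by 1.02 ± 0.22. It lost its call under limma on TPM and under limma-voom, and in no run that left out an embryo.

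Arl1 fell by 1.06 ± 0.27, Rab7 by 0.73 ± 0.19, Rab29 by 1.22 ± 0.36 and Rab39 by 2.63 ± 0.71. Arl5c, a trans-Golgi relative of Arl5a, rose by 0.97 ± 0.27 and Rab12, a GTPase of degradation from recycling endosomes, by 1.92 ± 0.58. Leaving out single embryos ended these calls. Without control blastocyst replicate 1 all 6 were lost, with edgeR adjusted p-values of 0.0648 for Arl1, 0.0647 for Rab7, 0.0869 for Rab29, 0.109 for Rab39, 0.26 for Arl5c and 0.214 for Rab12. Without control blastocyst replicate 2 the calls of Arl1 (0.0606), Rab7 (0.0513), Rab29 (0.0539) and Rab12 (0.0617) ended, and without replicate 3 those of Rab7 (0.0589), Rab29 (0.18), Rab39 (0.0995) and Rab12 (0.0792). Among the control morulae, leaving out replicate 1, 3 or 4 ended Rab29 (0.0526 to 0.0764), replicate 1, 2, 4 or 5 ended Rab12 (0.0603 to 0.0815), and replicate 1 or 5 ended Arl5c (0.0557 and 0.0542).

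Rab25, the epithelial relative of Rab11a, had no count in any 8-cell embryo or morula, split or control. It had 0.940, 1.96 and 0.778 CPM in the 3 control blastocysts, at least 6.28-fold above the floor of 3 counts per library in control morulae, and its edgeR adjusted p of 0.0696 missed the threshold. In split blastocysts it had counts in 2 of 6 embryos, at 3.00 and 1.78 CPM.

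Split morulae (3 sister pairs) were next set against control morulae (n = 5), which asks how split and control embryos differed at the morula. In split embryos, separation at the two-cell stage, the handling for it and growth from a single blastomere came together. Comparisons of split with control embryos therefore cannot tell these apart, at the morula or later. No member was called, where 0.126% of all genes were (0.0693% higher and 0.0567% lower), and 13 members had an unadjusted p under 0.05 (edgeR). DESeq2 called 5 members, all lower in split morulae: Rab2a, Arl1, Rab5a, Arl5a and Arl5c. Of all genes that DESeq2 called, 39.8% were higher. The shares of all genes at that unadjusted level and called by DESeq2 are not given here. The 13 and the 5 are therefore not results about the members as a set. Between units of the groups, 4 members lay wholly above and 7 wholly below, 14.9% of 74 against 7.29% of all genes.

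Rab2a, which acts between ER and Golgi, came nearest to a call. In split morulae it ranged over 78.4 to 155 CPM with a median of 122, against 222, 261, 247, 244 and 229 CPM in control morulae. No split embryo reached the lowest control embryo, the difference was -0.97 ± 0.20 (edgeR adjusted p = 0.0504), and it was called in 8 of 18 alternatives. Arl1 was at 48.4 to 181 CPM (median 132) in split morulae against 207 to 310 CPM in control morulae, a difference of -0.95 ± 0.27 with an adjusted p of 0.137.

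**Figure D3:**
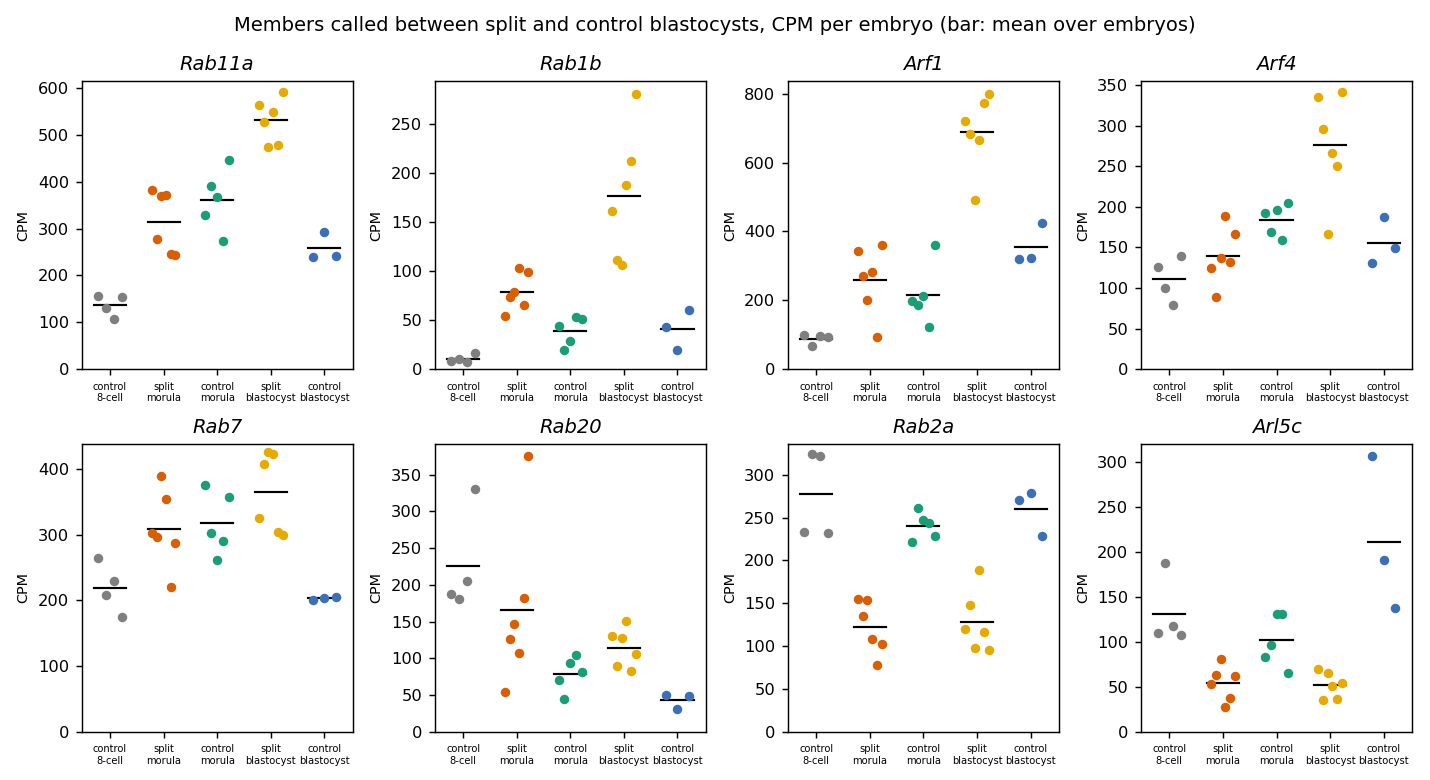
CPM per embryo (points) and mean over embryos (bars) of the 8 members called between split and control blastocysts, in the 5 groups. Rab2a in the split morulae, at 78.4 to 155 CPM, lay below all control morulae, and Rab11a in the split blastocysts, at 475 to 591 CPM, lay above every other embryo.

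At the blastocyst, 6 members rose and 2 fell in split embryos (3 sister pairs) relative to control embryos (n = 3). This was 10.8% of those tested, where 4.74% of all genes were called (3.42% higher, 1.32% lower). The member median was 0.51, against 0 over all genes. Limma on log2(TPM + 1), which changes both unit and test, called 2 members higher and 3 lower, while edgeR with RLE size factors again called 6 higher and 2 lower. Of all genes called, 72.2% were higher in the main edgeR test, 67.8% with RLE size factors and 45.5% with that limma fit. The balance of all genes thus moved as well. Units did not overlap for 17 members above and 12 below, 39.2% of 74 against 30.9% of all genes. Beside these differences the trophectoderm marker sums given above were higher in split blastocysts, whereas 5 epiblast markers summed to 269 to 437 CPM in split against 274 to 442 CPM in control blastocysts, and 4 primitive endoderm markers to 67.8 to 133 against 140 to 204 CPM. The trophectoderm sum was mostly keratins: Krt18 averaged 2600 ± 619 CPM in split against 869 ± 328 CPM in control blastocysts and Krt8 1750 ± 139 against 643 ± 196 CPM. The transcription factors were closer or lower: Gata3 (805 ± 165 against 794 ± 270 CPM), Cdx2 (23.8 ± 3.66 against 17.2 ± 3.69), Tfap2c (61.8 ± 20.2 against 65.1 ± 23), Eomes (30.1 ± 4.22 against 59.3 ± 15.3) and Elf5 (0.279 ± 0.484 against 0.514 ± 0.448). The epiblast sum held differences in both directions. Pou5f1 averaged 58.6 ± 14.9 against 7.73 ± 3.55 CPM, Sox2 11.8 ± 5.81 against 32 ± 11.9 and Klf2 12.3 ± 6.7 against 22.5 ± 5.82. Nanog was at 202 ± 54.5 against 195 ± 32.2 CPM and Fgf4 at 60.1 ± 16.8 against 76.8 ± 79.4 CPM. The primitive endoderm sum was mostly Gata6 (72.7 ± 13.3 against 141 ± 16.8 CPM). The part of these markers in the result was not tested.

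Rab11a stood at 475 to 591 CPM in split blastocysts, with a median of 539, against 239, 293 and 242 CPM in control blastocysts. Every split embryo exceeded every control embryo, and Rab11a rose by 1.12 ± 0.21 (edgeR adjusted p = 0.00257). Rab1b ranged over 106 to 280 CPM (median 174) in split blastocysts against 43.4, 19.7 and 59.9 CPM in control blastocysts. The groups were apart here too, with a log2 difference of 2.20 ± 0.44 (edgeR adjusted p = 0.00347). Rab1a, its paralog, was at 379 to 492 against 349 to 408 CPM and was not called.

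Of the 2 members called lower, Arl5c had the larger fall. It had 35.2 to 69.7 CPM (median 52.4) in split blastocysts against 306, 191 and 137 CPM in control blastocysts, with no overlap (log2 -1.96 ± 0.32, edgeR adjusted p = 0.000612). The calls of Rab11a, Rab1b and Arl5c held in all 16 alternatives.

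The 5 other calls were less firm. Arf1 was at 492 to 800 CPM (median 703) in split blastocysts against 321, 322 and 424 CPM in control blastocysts, and rose by 1.03 ± 0.28 (edgeR adjusted p = 0.034). Rab7 was at 299.9 to 426 CPM in split blastocysts against 201, 204 and 206 CPM in control blastocysts, and rose by 0.91 ± 0.21 (edgeR adjusted p = 0.00998). Rab20 was at 83.0 to 151 CPM against 31.5 to 49.8 CPM, and rose by 1.49 ± 0.37 (edgeR adjusted p = 0.0203). In these 3 genes the groups did not overlap.

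Arf4, a Golgi and ciliary transport GTPase, was at 167 to 342 CPM in split blastocysts against 131, 188 and 149 CPM in control blastocysts, so that 1 split embryo fell within the control range. It rose by 0.91 ± 0.24 (edgeR adjusted p = 0.0301). Rab2a was at 95.1 to 189 CPM (median 118) in split blastocysts against 271, 279 and 229 CPM in control blastocysts, without overlap, and fell by 0.94 ± 0.21 (edgeR adjusted p = 0.0107). Its difference between split and control morulae, which were other embryos, was -0.97 ± 0.20 as given above.

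The number of alternatives of 16 that ended a call was 8 for Arf4, 7 for Arf1, 7 for Rab20, 4 for Rab7 and 3 for Rab2a. Leaving out control blastocyst replicate 1 ended all of them, with edgeR adjusted p-values of 0.182 for Arf4, 0.162 for Arf1, 0.0554 for Rab20, 0.0549 for Rab7 and 0.0549 for Rab2a. Without control replicate 2 the calls of Arf1 (0.137), Rab20 (0.119) and Rab2a (0.0574) were lost, and without control replicate 3 those of Arf4 (0.111) and Rab20 (0.0519). Leaving out split pair 1 ended Arf4 (0.149) and Arf1 (0.102), pair 2 ended Rab20 (0.0851) and Rab7 (0.0625), and pair 3 ended Arf4 (0.128), Arf1 (0.149) and Rab2a (0.0922).

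Within split embryos, blastocysts (3 pairs) were set against morulae (3 pairs), where 3 members rose and 2 fell, 6.76% of those tested against 4.17% of all genes (1.22% higher and 2.95% lower). Units did not overlap for 18 members above and 9 below, 36.5% of 74 against 27.7% of all genes. Rab5a had 25 to 49.8 CPM (median 33.6) in split blastocysts against 57.6 to 140 CPM (median 91.6) in split morulae, and fell by 1.51 ± 0.28 (edgeR adjusted p = 0.00228). Arf1 had 492 to 800 CPM in split blastocysts against 92.4 to 361 CPM (median 276) in split morulae, and rose by 1.40 ± 0.28 (edgeR adjusted p = 0.00518). Both calls held in all 16 alternatives and neither gene's groups overlapped.

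Arl8b fell by 1.06 ± 0.24, a call that ended without split blastocyst pair 1 (edgeR adjusted p = 0.0646) or pair 3 (0.0877). Arf4 rose by 0.98 ± 0.24 and lost its call without split morula pair 1 (0.0952) or pair 3 (0.0508) or split blastocyst pair 1 (0.112) or pair 3 (0.105). Arl2 rose by 1.64 ± 0.42, to 56.8 to 120 CPM (median 97.8) in split blastocysts against 9.73 to 41.6 CPM (median 33.2) in split morulae. Its call ended without split morula pair 2 (0.0816) or pair 3 (0.135) or without any single split blastocyst pair (0.0633 to 0.142). Limma on log2(TPM + 1) called 8 members higher and 2 lower in this comparison. Of all genes called, 62.2% were higher with that fit, against 29.3% in the main edgeR test.

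Whether the split effect differed between blastocyst and morula was tested directly, as the log2 split effect at the blastocyst minus that at the morula. It was called for 3 members, all positive, 4.05% of those tested against 1.64% of all genes (1.37% positive and 0.265% negative). For Arl1 the difference was 1.66 ± 0.39 (edgeR adjusted p = 0.0332), with 158 to 253 CPM in split against 117 to 143 CPM in control blastocysts, and the values of Arl1 in morulae, given above, ran the other way. For Rab11a it was 1.32 ± 0.29 (0.0198), with a morula effect of -0.19 ± 0.19, and for Arf4 1.31 ± 0.33 (0.0421), with a morula effect of -0.40 ± 0.22.

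All of these interaction calls were fragile, lost in 13, 15 and 6 of 24 alternatives for Arl1, Arf4 and Rab11a. For Rab11a the call ended without split blastocyst pair 1 (edgeR adjusted p = 0.0608) or pair 3 (0.053) and without control blastocyst replicate 1 (0.0768) or 3 (0.0597). For Arl1 it ended without split morula pair 1 (0.0621) or 3 (0.0691), control morula replicate 1 (0.0627) or 5 (0.056), or any unit of the split or control blastocysts (0.0579 to 0.1). For Arf4 it ended without split morula pair 1 (0.116) or 3 (0.0629), any control morula (0.0501 to 0.07), split blastocyst pair 1 (0.141) or 3 (0.11), or control blastocyst replicate 1 (0.147) or 3 (0.109).

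**Figure D4:**
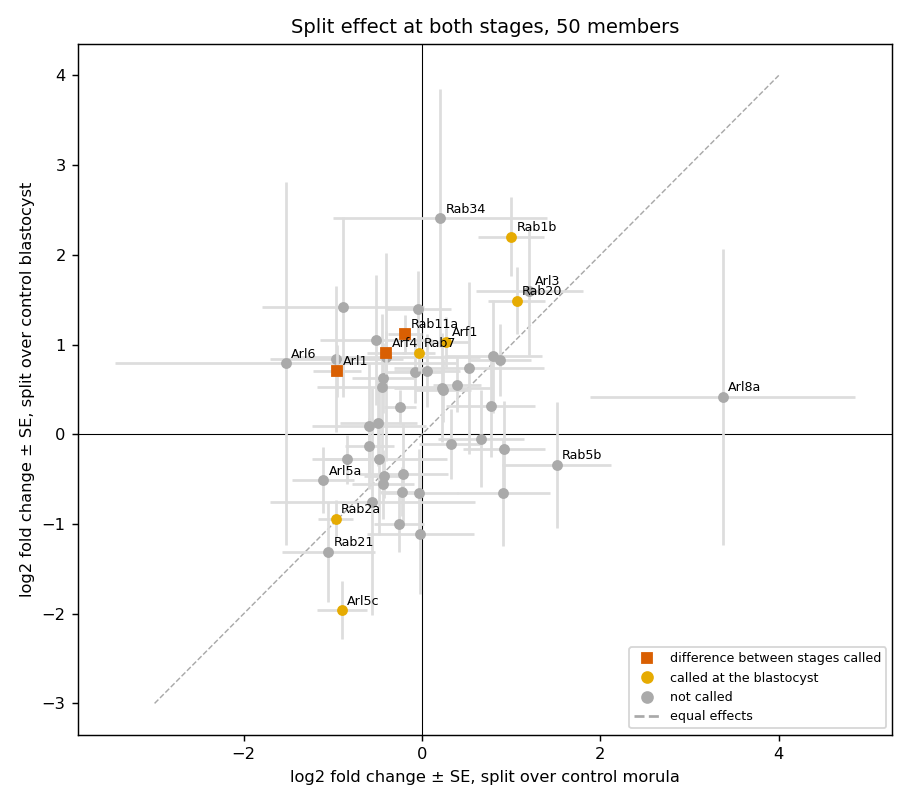
Log2 fold change ± SE of split over control embryos in morulae (x axis) and in blastocysts (y axis) for the 50 members with a mean of at least 5 TPM, with the line of equal effects dashed. Rab2a (-0.97 and -0.94) lies close to the line, Rab1b (1.00 and 2.20) lies above it, and the squares for Rab11a, Arf4 and Arl1 mark called differences between the stages.

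Many members have close paralogs, and their shares of the TPM of a set describe which gene supplied a GTPase. These shares were not tested. In the Rab5 set, Rab5a held 89.4% ± 4.55 of the TPM of Rab5a, Rab5b and Rab5c in 8-cell embryos, 57.5% ± 8.75 in split and 82.8% ± 3.39 in control morulae, and 26.5% ± 6.90 in split and 31.6% ± 6.45 in control blastocysts. Rab5c supplied 5.54% ± 3.39 in 8-cell embryos, 25.5% ± 15.0 and 12.7% ± 3.51 in split and control morulae, and 57.4% ± 4.63 and 48.1% ± 4.75 in split and control blastocysts. Rab5c itself was not called in any comparison, but blastocysts were not tested against 8-cell embryos. It had 17.7 to 48.9 CPM in split and 18.7 to 41.1 CPM in control blastocysts, against 4.01 to 15.7 CPM in 8-cell embryos.

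In the Rab1 pair, Rab1b held 8.66% ± 2.08 in 8-cell embryos, 23.9% ± 5.24 in split against 11.5% ± 4.31 in control morulae, and 39.2% ± 7.28 in split against 15.1% ± 6.43 in control blastocysts. The split and control ranges of Rab1b's share over single embryos were 29.2% to 49.9% against 8.62% to 21.5% in blastocysts, without overlap, and 14.1% to 30.6% against 5.89% to 15.3% in morulae, with an overlap. Arf1 held 71.6% ± 6.38 of the class I Arf set (Arf1, Arf2 and Arf3) in 8-cell embryos, 81.2% ± 11.8 and 86.2% ± 5.59 in split and control morulae, and 95.2% ± 2.21 and 91.1% ± 0.922 in split and control blastocysts. Arf2 held 21% ± 4.49 in 8-cell embryos, and 2.85% ± 2.13 and 2.89% ± 1.11 in split and control blastocysts.

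Arl8a, the minor lysosomal paralog of Arl8b, supplied 6.17% ± 0.719 of the pair in split morulae against 0.405% ± 0.631 in control morulae. It had 3.95 to 16.4 CPM (median 9.41) in the 6 split morulae against 0.0582, 0, 3.50, 0.391 and 0.800 CPM in control morulae, so no split morula fell into the control range. The test gave 3.37 ± 1.49 with an adjusted p of 0.308 (edgeR), and Arl8a was called in 2 of 18 alternatives.

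The Rab11, Rab8, Rab2, class II Arf and Arl4 sets kept 1 leading gene by group mean. Rab11a held a mean of 91.9% to 95.9% of Rab11a, Rab11b and Rab25 in all 5 groups. Rab8a, of transport to the plasma membrane, held 95.8% to 99.0% of its pair with Rab8b, and Rab2a 96.8% to 99.9% of its pair with Rab2b. Arf4 held 68.2% to 80.6% of class II, the rest being Arf5. Arl4a led its set, at 78.5% to 99.7%, over Arl4c and Arl4d. The leading gene differed between groups in the Rab4 and Rab3 sets. Rab4b held all of the low Rab4 level in 8-cell embryos (0.626 ± 1.06 TPM) and Rab4a 99.2% ± 0.805 in control morulae, 94.6% ± 2.29 in split and 95.4% ± 4.49 in control blastocysts. In split morulae the 2 embryos of pair 3 had no Rab4a count, against 5.76 to 35.4 CPM in the other 4. In the Rab3 set, of regulated secretion, Rab3d had the highest mean share in 8-cell embryos (44.5% ± 39.2), Rab3b in split (69.4% ± 20.1) and control morulae (69.9% ± 40.8), and Rab3a in split (56.9% ± 34.7) and control blastocysts (50.7% ± 24.3), with wide spreads between embryos. The level of the whole Rab3 set was low, at group means of 3.94 to 10.7 TPM. Exons of Rab3a also overlap those of Mpv17l2 (mean count 1340), whose reads cannot be told apart here.

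**Figure D5:**
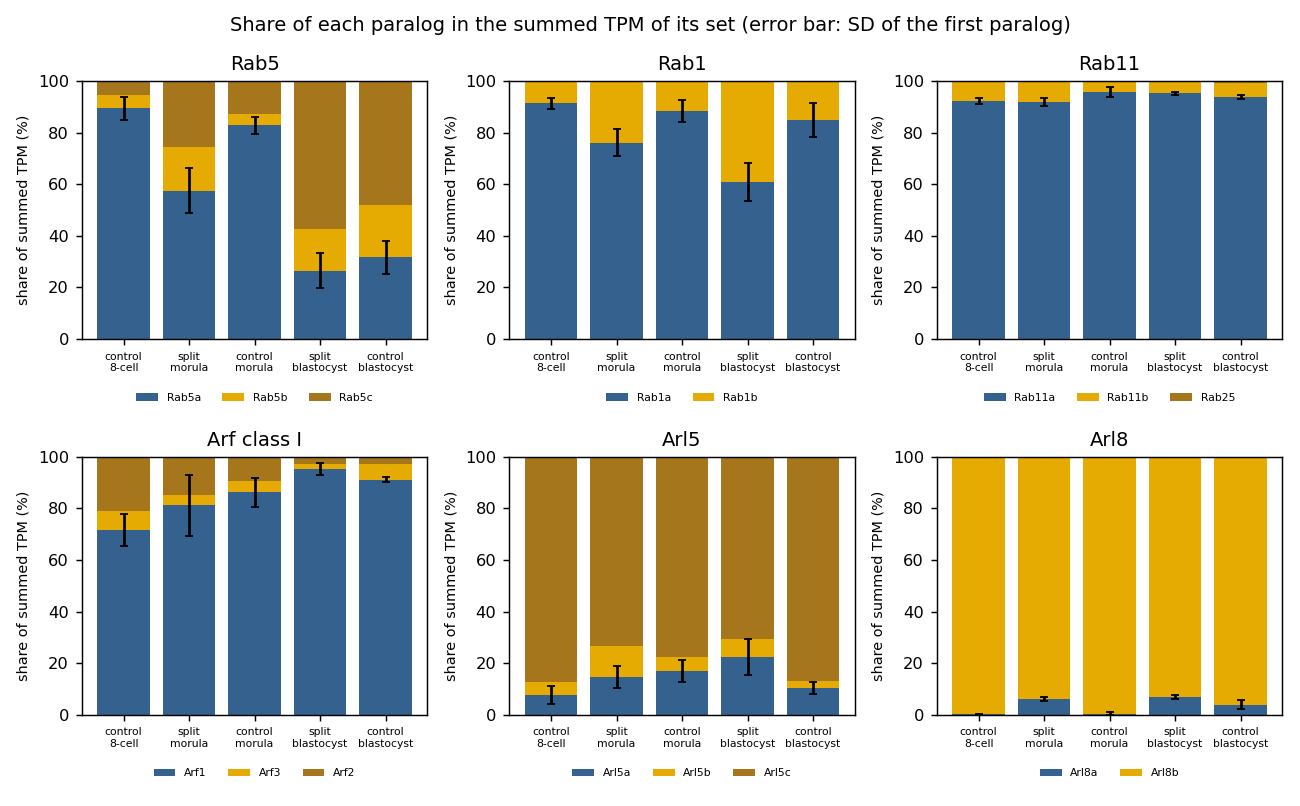
Mean share (%) of each paralog in the summed TPM of its set, by group, for 6 sets, with error bars for the SD of the first paralog (n = 4, 3 pairs, 5, 3 pairs and 3). Rab5a holds 26.5% in split and 31.6% in control blastocysts, and Rab1b reaches 39.2% in split blastocysts against 15.1% in control blastocysts.

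Regulators and effectors of the family were taken as lists. Between control morulae and 8-cell embryos, 3 of 43 tested Rab effectors rose and 8 fell (25.6% called), with a list median of -0.87 against 0.09 over all genes. The share called was near the 24.9% of all genes. Those that fell included the Rab5 effectors Rbsn (18 ± 5.58 against 93.4 ± 24.9 CPM, log2 -2.29 ± 0.39), Rabep1 (43.0 ± 17.1 against 138 ± 28.1 CPM, -1.61 ± 0.32) and Appl1 (36.8 ± 19.9 against 99.4 ± 31 CPM, -1.35 ± 0.37), while Appl2, a relative of Appl1 added here after its values were seen, was called higher, at 2.19 ± 2.21 CPM in control morulae with no count in 8-cell embryos (edgeR adjusted p = 0.0182). Gorasp1, a Golgi stacking protein, fell by 2.92 ± 0.56. Of 47 Rab GEFs, 8 rose and 4 fell, 25.5% and again near the share of all genes. Trappc1 and Trappc3, subunits of the TRAPP complex that activates Rab1, rose by 2.50 ± 0.41 and 1.97 ± 0.33, and Ric1 by 2.26 ± 0.36. The TRAPP subunits did not move as 1. Trappc13, Trappc5 and Trappc2l were also called higher, but Trappc10 was called lower (2.27 ± 1.72 against 15 ± 5.21 CPM). Others, such as Trappc4 (241 ± 35.9 against 225 ± 43.5 CPM) and Trappc8 (46.5 ± 10.5 against 41.2 ± 19.6 CPM), were not called. Mon1a, a subunit of the Rab7 GEF, fell by 2.10 ± 0.50.

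Of 35 Rab GAPs, 2 rose and 4 fell in that comparison (17.1% called). Evi5, a Rab11 GAP, fell by 2.67 ± 0.26, to 68.0 ± 20.7 CPM in control morulae against 457 ± 57.0 CPM in 8-cell embryos (edgeR adjusted p = 1.78e-07). Of 24 Arf coats and adaptors, 3 rose (Gga2, Copz1 and Ap1m2) and 4 fell (29.2%). Of 37 Arl regulators and effectors, 4 rose and 3 fell (18.9%), with Arl6ip1 at 555 ± 37.4 against 153 ± 14.3 CPM and Unc119b, which carries cargo released by Arl3, at 17.8 ± 5.92 against 78.2 ± 25.3 CPM. Of 12 Arf GEFs 1 rose and 1 fell, of 21 Arf GAPs 2 rose, and none of 11 genes of Rab prenylation and recycling was called (edgeR; 1 at an unadjusted p under 0.05).

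Between control blastocysts and control morulae, 4 of 12 Arf GEFs were called (33.3%, where 10.6% of all genes were), Iqsec1 and Psd3 higher and Cyth2 and Fbxo8 lower. Cyth2, a GEF of Arf6, had 62.2 ± 14.5 against 173 ± 38.7 CPM and fell by 1.57 ± 0.27. Of 15 relatives outside the symbol rule, 6 fell and none rose (40%, where 7.46% of all genes fell). Sar1b and Sar1a, the GTPases of the COPII coat, were at 130 ± 13.8 against 386 ± 25.9 CPM (log2 -1.66 ± 0.18) and 142 ± 34.3 against 365 ± 45.7 CPM (-1.45 ± 0.19). Ran, of nuclear transport, was at 883 ± 71.3 against 2280 ± 184 CPM (-1.46 ± 0.18).

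Between split and control blastocysts, 4 of 24 Arf coats and adaptors rose and none fell (16.7%, where 3.42% of all genes rose), with a list median of 0.45 against 0 over all genes. Copz1 and Cope are subunits of the COPI coat that Arf1 recruits. Copz1 was at 311 ± 24.3 against 103 ± 13.8 CPM (log2 1.68 ± 0.24, edgeR adjusted p = 0.000178) and Cope at 244 ± 66.3 against 98.9 ± 7.64 CPM (1.39 ± 0.27). The other COPI subunits were not called and did not share 1 direction. Copa (48.1 ± 11.7 against 87.4 ± 9.5 CPM) and Copb1 (90.5 ± 21.7 against 118 ± 32) had lower means, and Copb2 (101 ± 17.4 against 102 ± 16.1) was level. Higher means were found for Copg1 (82.4 ± 21.7 against 48.2 ± 7.07), Arcn1 (153 ± 12.9 against 112 ± 4.06), Copg2 and Copz2. Of the 24 genes of the list, 17 changed upward and 7 downward. The adaptor subunits Ap1s1 and Ap3s2 rose by 1.84 ± 0.43 and 1.69 ± 0.39.

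In the same comparison 1 of 35 Rab GAPs (2.86%), 1 of 47 Rab GEFs (2.13%) and 1 of 12 Arf GEFs (8.33%) were called, against 4.74% of all genes. The medians of these lists were -0.33, -0.56 and -0.47, with 22, 33 and 9 genes lower. The GAP Evi5 fell, at 32.4 ± 1.07 in split against 95.7 ± 4.91 CPM in control blastocysts (log2 -1.47 ± 0.31). Unlike most of their lists, the GEF genes Trappc3 (111 ± 21.9 against 34.5 ± 10.9 CPM) and Cyth2 (121 ± 17.1 against 62.2 ± 14.5 CPM) rose. No Rab effector, Arf GAP or Arl regulator was called. Of 11 genes of Rab prenylation and recycling, 1 rose and 1 fell (18.2%). Gdi2, which extracts Rab proteins from membranes, fell by 0.78 ± 0.18, and Rabac1, which returns them, rose by 1.56 ± 0.41. Ran and Sar1b, the 2 called of 15 relatives (13.3%), each rose by 0.86 ± 0.19. No gene of any of these lists was called between split and control morulae (edgeR; 10 of 47 Rab GEFs and 0 to 5 genes of each other list had an unadjusted p under 0.05). The share of all genes at that unadjusted level is not given here. The split effect differed between blastocyst and morula for Copz1 (1.76 ± 0.32), Ran (1.28 ± 0.25), Sar1b (1.25 ± 0.25) and Evi5 (-1.73 ± 0.41). These calls were 4.17% of the Arf coats and adaptors, 13.3% of the relatives and 2.86% of the Rab GAPs, against 1.64% of all genes.

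Arf4 was the member called in most comparisons, 4 of 6. Over the 18 units, the genes whose log2 CPM ran most like that of Arf4 among 5380 genes with a mean of at least 20 CPM were Rab11a (Pearson's r 0.861), Rae1 (0.843), Clic3 (0.839), Atp5g2 (0.838) and Itm2b (0.834). The units share group differences, so these values describe the pattern over stages as much as within them.

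Sister embryos were compared over the 35 members with a mean of at least 20 CPM. The median absolute log2 difference of a member between sisters was 0.47 to 0.56 in the 3 pairs of split morulae, against 0.37 to 0.76 between split morulae of different pairs, and 0.26 to 0.37 in the 3 pairs of split blastocysts, against 0.24 to 0.51 between pairs. The sister values lay within the range of the others at both stages, but their medians were smaller. For the members these were 0.47 against 0.55 in split morulae and 0.33 against 0.36 in split blastocysts. For all genes of at least 20 CPM they were 0.46 against 0.68 and 0.29 against 0.4. These differences were not tested. Control morulae differed from each other by 0.23 to 0.52.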

How the data were processed

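Raw read counts per gene were deposited by the authors in 1 table and TPM values (scaled by the authors for transcript length and depth) in another, 1 column per embryo. The submitters' processing notes name HISAT2, featureCounts and the build GRCm39, beside cutadapt, FastQC, MultiQC and edgeR. Versions, the annotation and the strand setting are not given in the sources used here. Every gene of the TPM table reached 10 counts in 3 libraries or more.

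Sister embryos share an origin, so their counts were summed, which gave 18 units in 5 groups. Genes were filtered with filterByExpr, library sizes were adjusted by TMM (a trimmed mean of log ratios), and each gene was fitted with edgeR's robust quasi-likelihood F test (two-sided, 13 residual degrees of freedom), with Benjamini-Hochberg adjustment over 15875 genes and a threshold of 0.05. Standard errors were derived from the F statistics. CPM are counts over the scaled library totals of the 24 embryos. Group means ± SD average sisters first. The libraries carry no molecular identifiers, so the floor of 3 counts covers counting error only.

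Alternatives were RLE size factors, DESeq2, no filter, the genes of the TPM table only, limma on log2(TPM + 1) and log2(TPM + 0.1), split embryos as single samples, limma-voom with the embryo of origin as a random effect, the compared groups alone, a replicate block, and leaving out each unit. The script was tested on simulated data. The members, lists and naming rules were chosen with earlier results of these data known. Named were all called members, the 10 highest, the larger paralog sets and up to 4 called genes per list. Further subunits of the COPI and TRAPP complexes were added after their values were seen. Promoters were RefSeq's, for 63 of 75 members, and overlaps came from GENCODE M21 on GRCm38. Genome coordinates from the build of the counts were not used. DESeq2 1.42.0, limma 3.58.1 and edgeR 4.0.16 were run under R 4.3.3.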

Additional observations from a re-analysis of the deposited data

Results flagged for a closer look

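In 9 of 105 groups examined over the 27 called members, 1 embryo stood far from the rest of its group by its gap to the nearest value over the range (Dixon's criterion, groups of 4 to 10 embryos). Chance flags about 1 in 20 groups of independent, normally distributed values, which CPM and sister embryos need not be. Among split embryos, Arl2 was at 9.73 CPM in blastomere 1 of split morula pair 3, against 31 to 41.6 CPM in the other 5. Rab4a was at 35.4 CPM in blastomere 1 of split morula pair 1, against 0 to 10.9 CPM. Arl3 was at 14.5 CPM in blastomere 1 of split blastocyst pair 1, against 1.46 to 3.08 CPM. Pair 2 of the split blastocysts held a high Rab31 value of 118 CPM in blastomere 1 (20 to 37.9 CPM in the others) and a high Rab21 value of 59.0 CPM in blastomere 2 (17.6 to 26.7 CPM in the others). Rab38 was at 32.8 CPM in blastomere 2 of split blastocyst pair 3, against 5.33 to 12.3 CPM.

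In control embryos, Rab38 was at 64.1 CPM in morula replicate 2, against 11.3 to 19.5 CPM. Arl5c was at 188 CPM in 8-cell replicate 2, against 108 to 117 CPM, and Rab20 at 331 CPM in 8-cell replicate 4, against 181 to 205 CPM. The split effect differed between blastocyst and morula, by edgeR's test of the difference itself, for Rab11a (log2 1.32), Arf4 (1.31) and Arl1 (1.66).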

How the results depend on the processing

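Between control morulae and 8-cell embryos, 23 members were called, and 21 to 25 when any 1 unit was left out. Between control blastocysts and control morulae, the 8 calls became 17 with DESeq2, 16 with limma on log2(TPM + 1) and on log2(TPM + 0.1), 5 with each split embryo as a sample, 4 with limma-voom and 16 in a fit of the compared groups alone, and 2 to 9 when 1 unit was left out. The 0 calls between split and control morulae became 1 with RLE size factors, 5 with DESeq2, 1 without a filter, 2 and 1 with limma on log2(TPM + 1) and log2(TPM + 0.1), 2 with single embryos and 3 with limma-voom (0 to 1 with a unit left out). The 8 calls between split and control blastocysts became 5 with either limma fit on TPM and 14 in a fit of the compared groups alone, and 3 to 7 with a unit left out. The 5 calls between split blastocysts and split morulae became 10 with DESeq2, 10 and 9 with limma on TPM, 12 with single embryos and 18 with limma-voom, and 2 to 5 with a unit left out. The 3 interaction calls became 0 with either limma fit on TPM, and 0 to 3 with a unit left out. All of these are counts of members alone. The share of all genes called under each alternative is not given beside them, so they do not show a change particular to the members.

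Same-numbered embryos did not deviate together (31 pairs, r from -0.03 to 0.08). Sisters of known shared origin correlated by only 0.11 (limma-voom), so low r cannot show that same-numbered embryos shared no animal or batch. With a replicate block the counts were 22, 8, 0, 7 and 5, in the order above, and 1 for the interaction. No called member changed direction in any of 860 refitted values, of which 147 missed the threshold. Of 999 counts of partner lists 206 moved, and of 874 paralog shares 81 moved. The cause was not tested. With 3 control blastocysts, the least deeply sequenced group, calls against them rest on few embryos.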

Other observations

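Levels and shares of a few members are added here. Rab9, of transport from late endosomes to the trans-Golgi, averaged 47.3 ± 31.6 CPM in 8-cell embryos, 31.6 ± 13.3 CPM in split and 45.8 ± 23.2 CPM in control morulae, against a range of 58.2 to 136 CPM in split and 83.1 to 113 CPM in control blastocysts. The difference between split blastocysts and split morulae was 1.61 ± 0.49, with an adjusted p of 0.0678 (edgeR). Arf6 had 43.6 to 92.7 CPM in split blastocysts against 101 to 175 CPM in control blastocysts, without overlap, and a difference of -1.0 ± 0.31 that missed the threshold (edgeR adjusted p = 0.0687) but passed it in 6 of 16 alternatives. In the pair of Rab22a and Rab31, which share early endosomal routes, Rab31 held 18.2% ± 16.8 of the TPM in 8-cell embryos, 46.9% ± 15.0 in split and 78.4% ± 6.66 in control morulae, and 82.2% ± 2.89 in split and 57.3% ± 10.4 in control blastocysts. These shares were not tested.

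Some rare members had counts in few embryos. Rab33a had counts in 1 of 6 split morulae (8.14 CPM) and 4 of 6 split blastocysts (up to 3.82 CPM), and none in any control embryo. Rab26, known from secretory granules, had counts in 4 of 6 split blastocysts (up to 9.33 CPM) and none in the 3 control blastocysts, the least deeply sequenced group. Control 8-cell embryos averaged 1.39 TPM of Rab26. Its exons overlap those of Traf7 (mean count 790) on the same strand, so reads of these genes cannot be told apart here. Of the 10 symbols that stand only in the count table, 2 had no count and none exceeded 61 counts in total.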
